A study of Mus musculus with 6 samples.

Results

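The genes described here encode subunits of V1, the cytosolic sector of the vacuolar ATPase (V-ATPase), the pump that acidifies lysosomes, endosomes and phagosomes. They were chosen by name as 9 symbols: Atp6v1a, Atp6v1b2, Atp6v1c1, Atp6v1d, Atp6v1e1, Atp6v1f, Atp6v1g1, Atp6v1g2 and Atp6v1h. All 9 were found among the 46603 genes of the deposited tables, and all 9 passed the filter on low counts, as 12767 genes did. RNA sequencing was done on mouse macrophages grown from the marrow of C57BL/6/J animals aged 7 weeks, with 20% L929-conditioned medium as the source of growth factor. Per the treatment protocol, the cells were detached at day 6, plated at 800000 per well and 6 h later given medium conditioned by cancer cells, either with its lipids (3 libraries) or lacking them (3 libraries). The growth protocol mixes hours and days, so both times rest on the treatment protocol alone. Both groups thus received cancer cell-conditioned medium, and no library from macrophages without it was analysed here. Which cancer line made the medium, how its lipids were taken out, how long cells were exposed and whether replicates came from separate animals or wells was not stated in the labels. The p-values therefore measure the spread between libraries, which may be technical.

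The V-ATPase works as a rotary motor. Subunits A and B of V1 form a ring that hydrolyses ATP, a central stalk with subunits D and F turns inside it, and peripheral stalks of E and G, joined to the membrane sector by C and H, hold the ring still. The turning stalk drives protons through the membrane sector V0. V1 can come off V0 and return, which is a known way of switching the pump. In macrophages the pump acidifies the compartments in which engulfed material is broken down, and its genes are among the known targets of the transcription factors TFEB and TFE3.

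Sequencing depth was 20778651 to 25323053 counts per library in medium with lipids, against 19429022 to 22330119 in medium without. Macrophage markers were abundant in every library: a list of 8 summed to 29182 to 29539 CPM (counts scaled to library depth) with lipids and 29500 to 34376 CPM without lipids. Replicate 1 without lipids stood apart from the other libraries, at -22.96 on the second principal component (21.8% of variance), where the others lay between -1.17 and 13.95. Mitochondrial transcripts took 1.61% to 1.75% of counts with lipids and 1.58% to 1.71% without lipids.

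Transcripts of 8 of the 9 V1 subunits were less abundant in macrophages given lipid-containing medium, and these 8 span every functional position of the sector. A fall here means a lower transcript level with lipids than without lipids, not a change from a level without conditioned medium. The falls were modest, with log2 fold changes between -0.57 for Atp6v1c1 and -0.26 for Atp6v1b2. The remaining gene, Atp6v1g2, an isoform of the G subunit that is known chiefly from brain, was the least abundant member and was at 0.59. Across all genes 6.87% were called lower with lipids (edgeR's quasi-likelihood test, adjusted p of 0.05). That is 877 genes lower beside 585 higher, and on library totals alone, without TMM factors, the split was 596 lower and 1241 higher, with 8 V1 subunits still called lower. The median log2 fold change of the 9 subunits was -0.41, against -0.0032 over all 12767 genes tested. Summed over the 9 subunits, V1 transcripts were at 2524, 2554 and 2521 CPM with lipids and at 3401, 3302 and 3242 CPM without lipids. As a share of all counts, that was 0.259%, 0.262% and 0.259% with lipids and 0.333%, 0.319% and 0.316% without lipids. RNA from whole cultures cannot tell less transcript per cell from fewer cells that express these genes.

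In TMM-scaled CPM, every library with lipids lay below every library without lipids for 8 subunits. For Atp6v1g2 every library with lipids lay above. Among all tested genes 15.8% had such separated groups with the lower level in medium with lipids, and 30.5% had separated groups in either direction. When a library was left out, the number of subunits called lower was 8 without replicate 1 with lipids and 5 without replicate 2 or replicate 3 with lipids. It was 7 without replicate 2 without lipids, and 8 without replicate 1 or replicate 3 without lipids. Over all genes, 474, 423 and 488 were lower without replicates 1, 2 and 3 with lipids. The all-gene count was 482 without replicate 2 without lipids and 1975 without replicate 1 without lipids, against 877 with every library kept. Over every fit that left out a library, that of replicate 3 without lipids included, it lay between 423 and 1975.

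**Figure D1:**
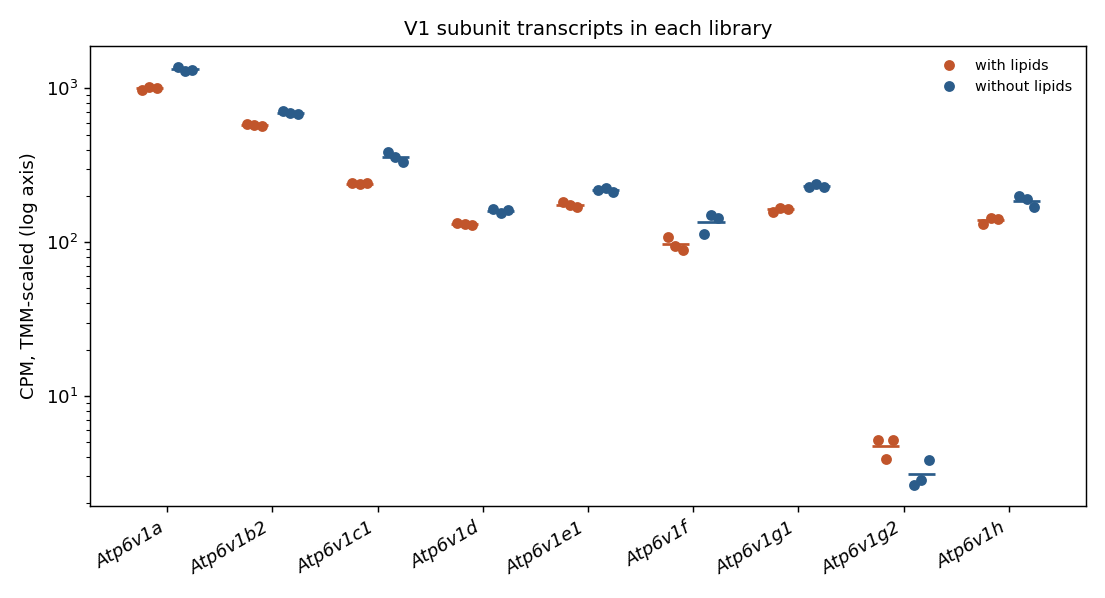
TMM-scaled CPM (log axis) of the 9 V1 subunit genes, with each point a library, bars at the group means, and libraries with lipids to the left of those without lipids. For 8 genes all 3 points with lipids sit below all 3 without lipids, closest for Atp6v1f at 108 against 112 CPM, and for Atp6v1g2 they sit above.

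Sequence upstream of the RefSeq start was available for 5 of the 9 members, as windows on GRCm38.p6. It is shown because TFEB and TFE3 are known to bind the CLEAR motif, built around TCACGTGA. In the 250 bases before the RefSeq start, both strands were searched for CACGTG, for TCACGTGA, which contains it, and for the longer CLEAR palindrome, which adds a G before and a C after those 8 letters. Capitals mark a match and all other bases are in lower case, each sequence running 5′ to 3′ on the gene's strand. Shown are Atp6v1a (chr16:44139260-44139509, minus strand), which held a match, Atp6v1d (chr12:78861639-78861888, minus strand), which fell and held none, and the downstream of a pair of starts of Atp6v1g2 (chr17:35236346-35236595, plus strand), the member that did not fall:
Atp6v1a: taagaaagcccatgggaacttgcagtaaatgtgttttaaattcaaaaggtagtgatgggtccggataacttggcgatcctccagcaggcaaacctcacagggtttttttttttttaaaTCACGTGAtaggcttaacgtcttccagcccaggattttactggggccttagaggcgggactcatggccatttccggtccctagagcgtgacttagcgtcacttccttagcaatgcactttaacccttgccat
Atp6v1d: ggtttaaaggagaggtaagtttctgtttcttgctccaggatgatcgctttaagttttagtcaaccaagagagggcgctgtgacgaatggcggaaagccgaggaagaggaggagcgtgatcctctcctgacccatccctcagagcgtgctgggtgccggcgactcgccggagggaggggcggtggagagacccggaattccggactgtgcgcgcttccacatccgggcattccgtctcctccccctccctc
Atp6v1g2: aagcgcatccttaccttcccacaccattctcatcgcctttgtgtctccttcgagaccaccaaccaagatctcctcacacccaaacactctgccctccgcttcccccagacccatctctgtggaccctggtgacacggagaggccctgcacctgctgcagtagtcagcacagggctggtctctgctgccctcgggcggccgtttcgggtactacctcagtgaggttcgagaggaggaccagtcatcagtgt

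Of the 5 genes, Atp6v1a held a match, the 8 letters TCACGTGA, whose inner CACGTG begins 131 bases before the RefSeq start. Atp6v1d, Atp6v1e1, Atp6v1f and both windows of Atp6v1g2 held none of the 3 motifs. Over all 32851 windows of the same length, 6.02% held CACGTG, 0.785% held TCACGTGA and 0.24% held the palindrome. Counted per gene, over 27025 genes, the shares were 6.86%, 0.907% and 0.27%. GENCODE places the start of Atp6v1a, Atp6v1e1, Atp6v1f and Atp6v1g2 farther upstream than RefSeq does. The windows of Atp6v1e1 and Atp6v1f overlap the GENCODE gene in part. Those of Atp6v1a and Atp6v1g2 lie wholly inside it, so the match in Atp6v1a is downstream of the GENCODE start. A match is a run of letters and was not tested as a binding site.

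Transcripts of the catalytic ring were lower with lipids. Atp6v1a, on chromosome 16 (44085402 to 44139705, GRCm38, minus strand), encodes the A subunit, which hydrolyses ATP. It was at 976, 1018 and 1011 CPM with lipids and at 1380, 1292 and 1309 CPM without lipids. It was the most abundant V1 transcript by CPM, and its groups were far apart compared with the spread inside each. Its log2 fold change was -0.41 (SE 0.05, edgeR adjusted p = 0.000898, n = 3 each), which puts the level with lipids at 75.5% of that without lipids.

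Atp6v1b2, on chromosome 8 (69088646 to 69113711, plus strand), encodes the B subunit that alternates with A in the ring. It was at 589, 581 and 570 CPM with lipids and at 714, 691 and 683 CPM without lipids. The groups did not overlap, but this was the smallest of the 8 falls, at -0.26 (SE 0.05, edgeR adjusted p = 0.00815). The call was lost without replicate 2 with lipids (adjusted p = 0.065) or replicate 3 with lipids (adjusted p = 0.0712), and adjusted p ran from 0.000478 to 0.0712 over 14 alternatives. Atp6v1b1, the B isoform known from acid-secreting cells of the kidney, had 0 counts in every library. With 19429022 to 25323053 counts per library, a count of 0 allows a level of up to 0.118 to 0.154 CPM, counting error alone considered.

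Central stalk transcripts were lower with lipids as well. Atp6v1d, on chromosome 12 (78840725 to 78861638, minus strand), encodes the D subunit, the axle of the rotor. It was at 133, 131 and 129 CPM with lipids and at 164, 154 and 162 CPM without lipids. The groups did not overlap, with libraries spread more widely without lipids than with lipids, and the log2 fold change was -0.29 (SE 0.06, edgeR adjusted p = 0.00715). That call was also lost without replicate 2 or replicate 3 with lipids (adjusted p = 0.0552 and 0.0555), within a range of 0.000694 to 0.0555 over 14 alternatives.

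Atp6v1f, on chromosome 6 (29467718 to 29470512, plus strand), encodes the small F subunit that binds D. It was at 108, 94.9 and 89.1 CPM with lipids and at 112, 150 and 144 CPM without lipids. On the log2 scale its SE was the largest of the 8 subunits that fell: replicate 1 without lipids lay just above replicate 1 with lipids, while the other two libraries without lipids were well above. The log2 fold change was -0.48 (SE 0.11, edgeR adjusted p = 0.0161). It was -0.59 without replicate 1 without lipids (adjusted p = 7.07e-05). The call was lost without replicate 2 with lipids (adjusted p = 0.075), replicate 3 with lipids (adjusted p = 0.0756) or replicate 2 without lipids (adjusted p = 0.0902), and the range over 14 alternatives was 2.07e-08 to 0.0902. A processed pseudogene on another locus, AC169506.3, matches 360 bases of an Atp6v1f transcript at 97.5% identity. It was not among the 46603 genes counted, so reads shared between the pair cannot be told apart.

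For the peripheral stalks, transcripts of the widely used isoforms were lower with lipids. Atp6v1e1, on chromosome 6 (120794305 to 120822793, minus strand), encodes the E subunit. It was at 182, 176 and 169 CPM with lipids and at 217, 224 and 213 CPM without lipids. The groups were separate, and the log2 fold change was -0.31 (SE 0.06, edgeR adjusted p = 0.00489), a call kept in all 14 alternatives. Atp6v1e2, the E isoform of testis, had 0 counts in every library.

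Atp6v1g1, on chromosome 4 (63544772 to 63550750, plus strand), encodes the widely expressed G subunit that pairs with E. It was at 158, 166 and 165 CPM with lipids and at 227, 240 and 227 CPM without lipids. Both groups were tight, and the fall of -0.50 (SE 0.06, edgeR adjusted p = 0.000236) was kept in all 14 alternatives, between -0.52 and -0.43. A processed pseudogene, Gm13453, matches Atp6v1g1 over 357 bases at 99.4% identity and held 80 counts over the 6 libraries. That count does not show how many reads the pair shared.

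Atp6v1g2, on chromosome 17 (35233660 to 35238767, plus strand), had a log2 fold change of the opposite sign that was not called. It had 114, 101 and 111 counts with lipids, against 50, 54 and 83 counts without lipids, or 5.15, 3.88 and 5.19 CPM with lipids and 2.63, 2.86 and 3.81 CPM without lipids. The groups did not overlap, although replicate 2 with lipids and replicate 3 without lipids nearly met. The log2 fold change of 0.59 (SE 0.18, unadjusted 95% interval 0.20 to 0.99) did not pass the threshold (edgeR adjusted p = 0.0581). It passed in 4 of 14 alternatives, among them library totals alone (adjusted p = 0.0308), no filter (0.00355) and leaving out replicate 3 without lipids (0.0192), and adjusted p ranged from 0.00355 to 0.199 over the 14.

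Atp6v1g2 shares 144 exon bases with Nfkbil1 on the opposite strand, which held 468 counts over the 6 libraries against 513. Nfkbil1 itself averaged 3.70 ± 0.16 CPM with lipids, against 3.48 ± 0.99 CPM without lipids (SD, n = 3 each), which is 0.08 on the log2 scale (SE 0.19, edgeR adjusted p = 0.833). The library kit was stranded, but the strand setting of the counting was not stated, so reads from the shared bases cannot be assigned with certainty. Per length of exons, Atp6v1g2 made up 1.30 ± 0.22% of the summed Atp6v1g1 and Atp6v1g2 level with lipids and 0.60 ± 0.13% without lipids (SD, n = 3 each), so Atp6v1g1 supplied nearly all G transcripts in both media. Atp6v1g3, the G isoform of kidney, had 0 counts in every library.

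Transcripts of the subunits that tie V1 to the membrane sector were lower with lipids too. Atp6v1c1, on chromosome 15 (38661933 to 38692446, plus strand), encodes the C subunit, which leaves the complex when V1 and V0 come apart. It was at 241, 240 and 241 CPM with lipids and at 384, 357 and 331 CPM without lipids. Libraries with lipids were almost level, while those without lipids spread more widely, and the fall of -0.57 (SE 0.06, edgeR adjusted p = 0.000236) was the largest of the 8. The level with lipids was 67.3% of that without lipids, and the call was kept in all 14 alternatives, between -0.62 and -0.49. Atp6v1c2, the C isoform of kidney and lung, had 0 to 2 counts per library.

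Atp6v1h, on chromosome 1 (5070018 to 5162529, plus strand), encodes the H subunit, which restrains ATP hydrolysis by V1 that has come off the membrane. It was at 132, 143 and 141 CPM with lipids and at 200, 190 and 170 CPM without lipids. The lowest library without lipids was still well above the highest with lipids, and the log2 fold change was -0.43 (SE 0.07, edgeR adjusted p = 0.00302). All 14 alternatives kept that call. The unadjusted 95% intervals of the 8 falls overlapped for most pairs but not for the extremes, which were -0.71 to -0.43 for Atp6v1c1 and -0.38 to -0.15 for Atp6v1b2. Whether the subunits fell by different amounts was not tested.

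**Figure D2:**
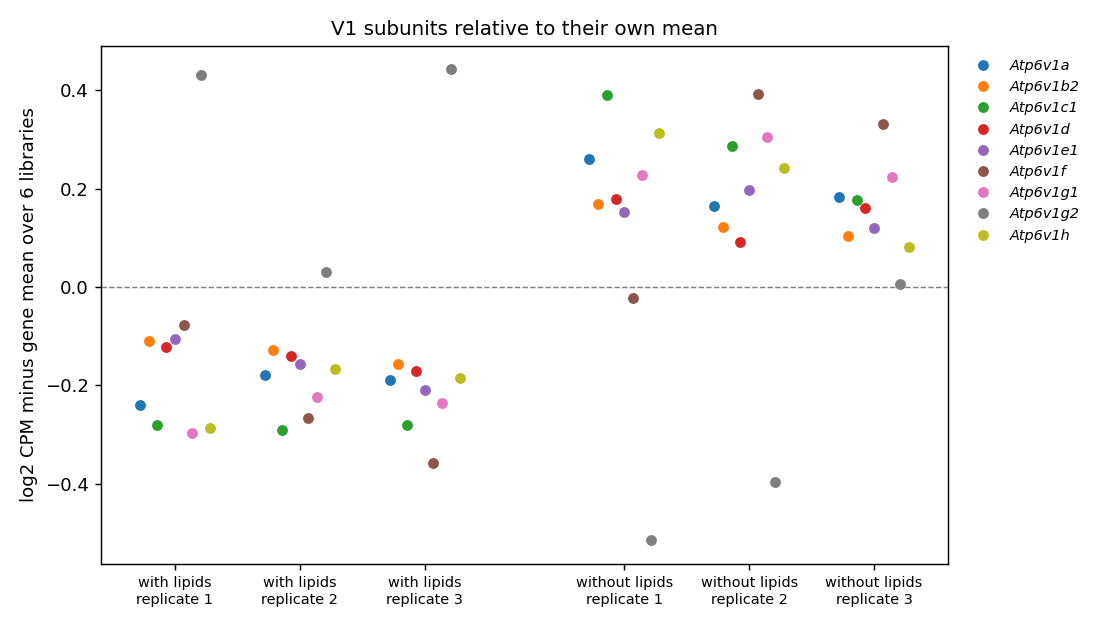
log2 CPM of each V1 subunit minus that gene's mean over the 6 libraries, with libraries with lipids on the left and without lipids on the right. The 8 subunits that fell sit between -0.36 and -0.08 with lipids and between -0.02 and 0.39 without lipids, and Atp6v1g2 has the opposite sign, from 0.03 to 0.44 with lipids and from -0.51 to 0.01 without lipids.

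The levels of different subunits were compared per length, as TPM (a level scaled to exon length and library depth) computed from the counts and the exon length of each gene. By mean TPM the order was the same in both media. Atp6v1a led at 598 ± 16 TPM with lipids and 736 ± 41 TPM without lipids, and Atp6v1g1 followed at 519 ± 16 TPM with lipids and 683 ± 20 TPM without lipids (SD, n = 3 each). Atp6v1b2 at 395 ± 4.7 TPM with lipids and 440 ± 19 TPM without lipids, and Atp6v1f at 331 ± 32 TPM with lipids and 426 ± 56 TPM without lipids, came next. These 4 encode the ring, a rotor subunit and a stalk subunit. In TPM, unlike in TMM-scaled CPM, the groups of Atp6v1f overlapped: replicate 1 was at 365 TPM with lipids and 363 TPM without lipids.

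A second tier lay below. Atp6v1c1 was at 155 ± 0.75 TPM with lipids and 214 ± 20 TPM without lipids, and Atp6v1e1 at 154 ± 4.9 TPM with lipids and 178 ± 5.7 TPM without lipids. Atp6v1d was at 103 ± 1.3 TPM with lipids and 117 ± 5.5 TPM without lipids. Atp6v1h was at 51.4 ± 2.5 TPM with lipids and 64.2 ± 6.3 TPM without lipids, and Atp6v1g2 was far lower, at 6.82 ± 1.07 TPM with lipids and 4.13 ± 0.78 TPM without lipids. Neighbours in this order were separate in their libraries, except Atp6v1c1 and Atp6v1e1 with lipids and Atp6v1b2 and Atp6v1f without lipids. TPM values were not scaled by TMM factors, and exon lengths count every annotated exon, so a gene with long rarely used exons is placed too low.

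As shares of the summed TPM of the 9 genes, some subunits gained and others lost a little. Atp6v1a took 25.9 ± 0.75% with lipids and 25.7 ± 1.2% without lipids (SD, n = 3 each), with overlapping libraries. Atp6v1b2 took 17.1 ± 0.11% with lipids and 15.4 ± 0.46% without lipids, and Atp6v1c1 took 6.71 ± 0.09% with lipids and 7.47 ± 0.56% without lipids, neither with overlap. Shares of Atp6v1d, Atp6v1e1 and Atp6v1g2 were also separate and higher with lipids, and that of Atp6v1g1 separate and lower. These shares add up to a fixed total and were compared by value only, with no test.

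**Figure D3:**
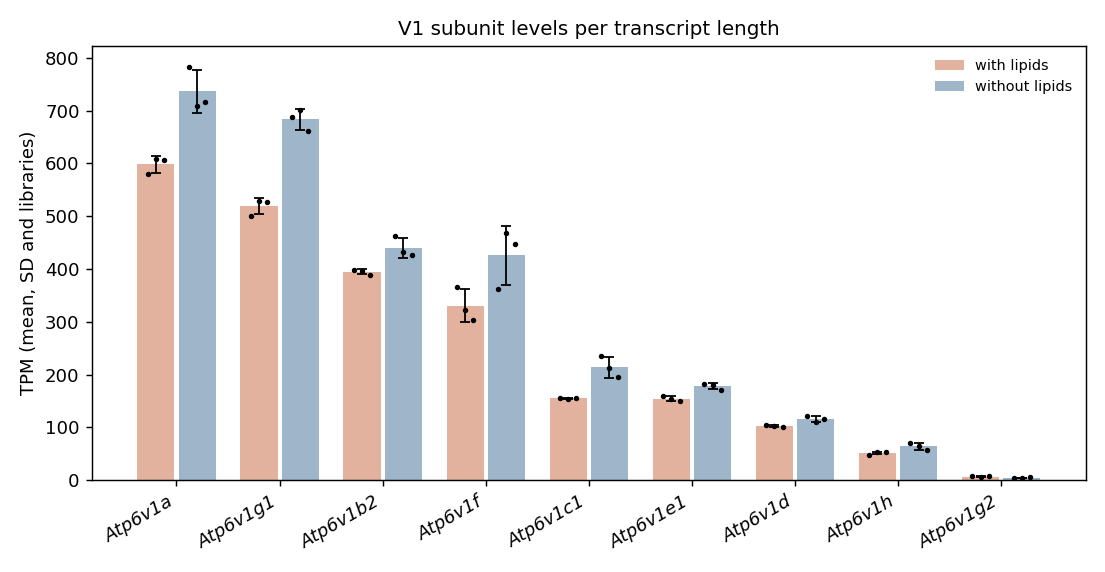
TPM of the 9 V1 subunits, ordered by level, with bars at group means, error bars of 1 SD and a point per library, libraries with lipids to the left. The order runs from Atp6v1a at 598 TPM with lipids and 736 TPM without lipids to Atp6v1g2 at 6.82 TPM with lipids and 4.13 TPM without lipids.

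Transcripts of the membrane sector V0, through which protons pass, were lower with lipids in part. Of its 10 listed genes 8 were tested, 4 were lower with lipids, 0 were higher, and all 8 had negative log2 fold changes (median -0.28), where 6.87% of all genes were called lower. Atp6v0d2, the d isoform of macrophages and osteoclasts, changed most, at -1.51 (SE 0.07, edgeR adjusted p = 1.92e-06), which left 35.2% of the level without lipids. Atp6v0e at -0.39, Tcirg1, which encodes the a3 subunit, at -0.45, and Atp6v0d1, the widely expressed d isoform, at -0.31 also fell (edgeR adjusted p between 0.00247 and 0.00867). Atp6v0a2 was at -0.08 (edgeR adjusted p = 0.499). Atp6v0d1 was not called without replicate 1 or replicate 2 with lipids (adjusted p = 0.0532 and 0.0555, range over its alternatives up to 0.0555), and 7 V0 genes were called lower without replicate 1 without lipids, a fit in which 1975 genes were lower in all. Whether V1 and V0 differed in the share called was not tested.

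**Figure D4:**
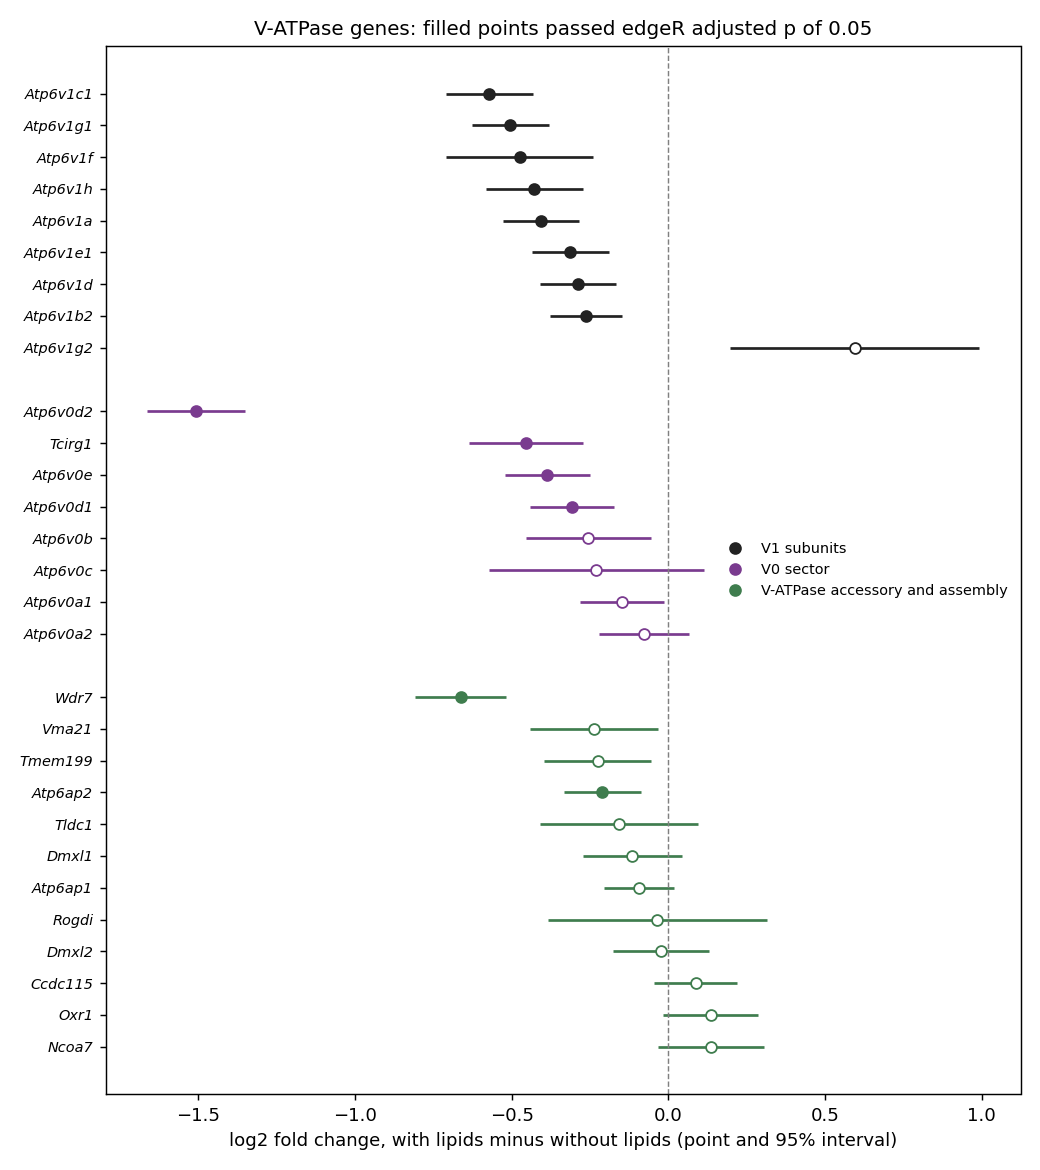
log2 fold changes (with lipids minus without lipids) and unadjusted 95% intervals for tested V1, V0 and accessory genes of the V-ATPase, with filled points for genes past an edgeR adjusted p of 0.05. Filled points are 8 of 9 V1 genes, 4 of 8 V0 genes and 2 of 12 accessory genes, and all lie below 0.

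Of 14 genes for accessory subunits and assembly of the pump 12 were tested, and 2 were lower with lipids and 0 higher (median -0.10), where 6.87% of all genes were lower and 4.58% higher. Wdr7, which with Dmxl2 forms a complex that helps V1 join V0, averaged 91.2 ± 2.5 CPM with lipids, against 144 ± 9.7 CPM without lipids (SD, n = 3 each). It fell by 0.66 on the log2 scale (SE 0.07, edgeR adjusted p = 0.00011), a call that was kept in all 14 alternatives. Atp6ap2, an accessory subunit also called the prorenin receptor, was at -0.21 (edgeR adjusted p = 0.0341), and lost its call in 6 of 14 alternatives. These were library totals alone (adjusted p = 0.146), leaving out any library with lipids (0.137, 0.122 and 0.152), leaving out replicate 2 without lipids (0.0613), and a block for replicate number. Rogdi was at -0.04 (SE 0.16, edgeR adjusted p = 0.916), a sign that turned with library totals alone (0.041) and without replicate 3 without lipids (0.22), with adjusted p from 0.246 to 0.992 over its alternatives.

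A further list held the lysosomal nutrient-sensing machinery, which docks on the V-ATPase, and the 4 MiT/TFE transcription factor genes. Of its 20 genes, all tested, 7 were lower and 0 higher (median -0.21), against 6.87% lower and 4.58% higher over all genes. The Rag GTPase genes Rragd at -0.88 (edgeR adjusted p = 0.00011) and Rragc at -0.29 (0.00475), the folliculin partner Fnip2 at -0.51 (0.000813) and Rptor, a scaffold of the kinase complex mTORC1, at -0.37 (0.00969) were lower. Rragb was at -0.01 (edgeR adjusted p = 0.976). The count of lower members was 3 without replicate 2 or replicate 3 with lipids or replicate 2 without lipids, 5 without replicate 1 with lipids, and 11 without replicate 1 without lipids. Over all genes 423 to 488 were lower in the first 4 of these fits and 1975 in the last, against 877 with every library kept. Rptor was among those lost without replicate 2 or replicate 3 with lipids or replicate 2 without lipids (adjusted p 0.0717, 0.0561 and 0.0553, the highest over its alternatives being 0.0717). Lamtor1, Lamtor3 and Lamtor4, which anchor that machinery on the lysosome, made up the rest of the 7. The 4 MiT/TFE genes, named after their values were seen, were not called: Tfeb was at -0.46 (SE 0.16, edgeR adjusted p = 0.0832), Tfe3 at 0.02, Mitf at 0.02 and Tfec at 0.24. By library, Tfeb was at 22.3, 20.9 and 22.3 CPM with lipids and at 21.4, 36.6 and 32.2 CPM without lipids.

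Other ion transporters of lysosomes and endosomes had 7 negative and 7 positive log2 fold changes. Of 14 tested, 3 were lower and 1 higher with lipids (median -0.00087). Over all genes 6.87% were called lower, 4.58% higher and 11.5% in either direction. Mcoln3, a cation channel, was at -1.61 (edgeR adjusted p = 5.70e-06), Clcn7, a chloride-proton exchanger that works beside the pump, at -0.61 (7.85e-05) and Mcoln2 at -0.33 (0.00877). Slc9a9, a sodium-proton exchanger of endosomes, was higher by 0.43 (0.00676). Clcn6 was at -0.01 (edgeR adjusted p = 0.945). Without replicate 1 without lipids 5 were lower, with 1975 lower over all genes, and Mcoln2 was not called without replicate 1 or replicate 2 with lipids (adjusted p = 0.0571 and 0.0607, with 0.0607 the highest over its alternatives).

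Some markers of other cells moved with the V1 genes. The counts below stand beside 6.87% of all genes called lower, 4.58% higher and 11.5% in either direction. In a list of 6 osteoclast markers, Acp5 and Ctsk, which lysosomes of macrophages can also hold, were lower with lipids at -0.76 and -0.90 (edgeR adjusted p = 0.0133 and 0.000964). A further marker that was tested, Dcstamp, averaged 11.2 ± 4.8 CPM with lipids, against 11.8 ± 4.5 CPM without lipids (SD, n = 3 each), and was not called (-0.07, edgeR adjusted p = 0.911). The list summed to 17.7 to 24.8 CPM with lipids and 22.9 to 31.8 CPM without lipids, and the defining marker Calcr had 0 counts in every library. Of the macrophage list, Cd68, which encodes a lysosomal membrane protein, was lower at -0.55 (edgeR adjusted p = 0.000306), Itgam was higher at 0.56 and Fcgr1 at 0.29, and 5 of 8 were not called. Fibroblast markers, led by Col1a2, summed to 98.3 to 106 CPM with lipids and 98.3 to 136 CPM without lipids, and 0 of 4 tested were called. Of 5 T cell markers Cd4 was lower with lipids at -1.16 (edgeR adjusted p = 0.000879), while Cd3e and Cd8a had 0 counts in every library. The part of any of these in the V1 result was not tested.

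**Figure D5:**
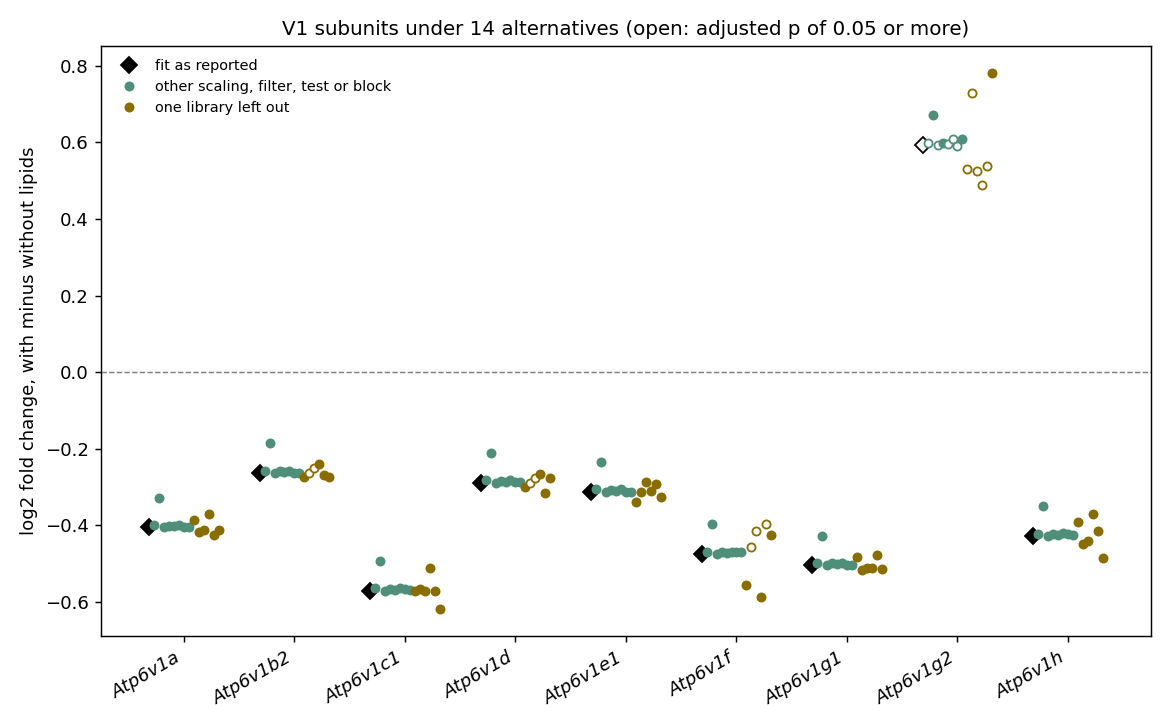
log2 fold change (with lipids minus without lipids) of each V1 subunit as reported (diamond), under 8 other choices of scaling, filter, test or block, and in 6 fits that each left out a library, with open symbols where the adjusted p was 0.05 or more. Every value of the 8 subunits that fell stays below 0, and every value of Atp6v1g2 stays above 0, between 0.49 and 0.78.

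Genes closest to the mean profile of the 9 subunits were found by root-mean-square difference, over 6 libraries on the centred log2 scale. That profile includes Atp6v1g2 and so is shallower than that of the 8 falling genes, with -0.15 as its mean with lipids and 0.15 as its mean without lipids. The 5 closest protein-coding genes were Stom, a membrane protein (difference 0.022), Cndp2, a cytosolic dipeptidase (0.022), Tpp1, a lysosomal peptidase (0.023), Mief1, a mitochondrial fission adaptor (0.023), and Tmem219 (0.025). All 5 lay closer to the mean profile than any member did. Among members the closest was Atp6v1b2 (0.034), with 17 genes closer, and the farthest after Atp6v1g2 was Atp6v1f (0.17), with 4536 closer. Nearness to this mean is therefore not likeness to each subunit.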

How the data were processed

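The authors deposited raw read counts per Ensembl gene for each library. Per the submitters' processing notes, GRCm38.p4 was the build and the tools included DESeq2, HTSeq and TopHat2 2.1.0, with no roles. Strand setting and annotation release: not given in the sources used here. Symbols, positions and exon lengths came from GENCODE M21 (GRCm38), which matched 46091 of 46603 identifiers. Groups and replicate numbers came from the sample titles.

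Testing used edgeR 4.0.16 (R 4.3.3): filterByExpr (minimum count 10, minimum total 15), TMM scaling, a two-sided quasi-likelihood F test and Benjamini-Hochberg adjustment over 12767 genes at 0.05. A log2 fold change is the level with lipids over that without, its SE was derived from F, and CPM uses TMM-scaled totals. Nothing in the tables was left out. Same-group libraries differed beyond sampling noise. Chi-square per degree of freedom between pairs was 2.67 to 4.78 with lipids and 7.78 to 19.9 without lipids. The edgeR steps were tested on simulated data.

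Members, lists and tests were chosen with earlier results of these data known, so lists carry no test of their own. Named genes were all members, in each other list up to 4 called genes per direction with the smallest p plus the member with the largest p, and the 5 nearest in pattern. Marker genes, genes that share reads with a member, and the MiT/TFE factors are named beside these, some after their values were seen. Alternatives were median-of-ratios factors, library totals alone, scaling without the 20 most abundant genes, no filter, 1 CPM in 3 libraries, DESeq2 1.42.0, limma-voom (limma 3.58.1), a replicate block and each library left out.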

Additional observations from a re-analysis of the deposited data

How the results depend on the processing

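Every V1 subunit kept its sign in all 14 alternatives. The number of V1 subunits called lower stayed at 8 outside the fits that left out a library, where it ran from 5 to 8, and 0 or 1 was called higher in those fits. Atp6v1g2 was that member, and 1 gene was also called higher with a replicate block, with no filter and on library totals alone. The V1 median was -0.33 with library totals alone, where the median of all genes moved to 0.07, and ran from -0.42 to -0.37 with a library left out. Over all genes, 1241 were higher and 596 lower on library totals alone, 1009 were higher and 1243 lower with no filter, and with a library left out 219 to 1566 were higher and 423 to 1975 lower, the largest counts without replicate 1 without lipids.

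Accessory and assembly genes lower were 1 with library totals alone and 1 with the replicate block, and with a library left out 1 to 3 were lower and 0 to 2 higher. V0 genes lower were 3 to 7 and ion transport genes 2 to 5 when a library was left out. In the nutrient-sensing and MiT/TFE list 3 to 11 were then lower and 0 or 1 higher, and 1 was higher with library totals alone. On library totals alone, the log2 fold changes of 3 genes near 0 turned positive, to 0.041 for Rogdi, 0.066 for Rragb and 0.066 for Clcn6. With a library left out they ran from -0.15 to 0.22 for Rogdi, from -0.10 to 0.12 for Rragb and from -0.043 to 0.011 for Clcn6, and none was called in any of these fits. The cause of these shifts was not tested. Deviations of same-numbered libraries from their group means correlated weakly (-0.01, -0.09 and 0.18, against -0.13 to 0.16 for differently numbered ones). With 3 libraries a group, these values cannot decide whether the numbers pair libraries. With the replicate block 715 genes were higher and 937 lower, Atp6v1g2 passed (adjusted p = 0.0245), Atp6ap2 did not (0.0533), and the other V1 calls held. Precision rests on 3 libraries a group.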
